A study of Rattus norvegicus with 8 samples.

Results

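The S100 genes described here are S100a1, S100a4, S100a6, S100a10, S100a11, S100a13 and S100b, and they were compared between rat atrium and ventricle. They were chosen by name, taking every probe set annotated to these symbols, which gave 7 genes with 1 probe set each among the 14217 genes on the array. S100a8 and S100a9 are not among them. The samples were 4 pools of left atrial appendage and 4 pools of left ventricular free wall from 13 normal, untreated male Sprague-Dawley rats weighing 225 to 275 g, with 1 array per pool. The age of the rats is not given in the labels, the left side rests on the study's methods, and how the animals were divided among the pools is not described, so the spread below is between pools and not between animals.

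S100 proteins are small EF-hand proteins that mostly work as dimers. On binding calcium they open a surface that holds a partner, such as an annexin, a myosin heavy chain or a calcium pump, so each member passes a calcium signal to different targets. Several are also released from cells and act outside them through the receptor Ager (RAGE). In the heart S100a1 is known as the cardiomyocyte member that acts on the sarcoplasmic reticulum and titin, while S100a4, S100a6, S100a10 and S100a11 are abundant in fibroblasts, mesothelium, macrophages and vessels, and S100b is a protein of Schwann cells and adipocytes.

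The tissue labels fitted their markers. All 4 atrial muscle markers (Nppa, Myl7, Myl4 and Sln) were higher in the atrium, with a median difference of 6.02 on the log2 scale, and all 4 ventricular muscle markers (Myl2, Myl3, Irx4 and Myh7) were lower, with a median of -4.05. The atrial pools were not alike in the ventricular markers. The log2 signal intensity of Myl2, the ventricular regulatory light chain, in its brightest probe set was 10.48, 4.32, 6.82 and 11.30 in atrial pools 1 to 4, against 13.23, 13.23, 13.30 and 13.28 in the ventricular pools. Myl3, the essential light chain, was likewise highest in atrial pools 1 and 4, at 9.93 and 10.43, against 8.06 and 7.75 in pools 2 and 3. A dimmer Myl2 probe set, at 4.12, 3.94, 4.12 and 4.82, and Irx4, at 3.37, 3.24, 3.53 and 3.92, were highest in pool 4 but did not set pool 1 apart, and nor did Myh7, at 6.29, 6.32, 6.27 and 6.68. The S100 differences are given with and without atrial pools 1 and 4, a choice made after these values were seen. Correlations between arrays over all probe sets ran from 0.969 to 0.996. Signals of different probe sets cannot be set against each other, so only differences between the tissues are compared between genes.

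The promoter sequences are shown because 6 of the 7 genes stand in 1 cluster on chromosome 2 and most of them were higher in the same tissue, so that the sequences beside their start sites can be read together. RefSeq promoters were at hand for 5 of the 7 genes, and S100a1 and S100a10 are named only. Each line gives the 120 bases before the transcription start, 5′ to 3′ on the gene's strand, in assembly GRCr8. Capitals mark the motif TATAAA in S100a4 and the motif GGGCGG in S100a13, S100a6 and S100a11. In S100b they mark ATTGG, which is the other strand of the motif CCAAT.
S100a13 (chr2:178296900-178297019, plus strand): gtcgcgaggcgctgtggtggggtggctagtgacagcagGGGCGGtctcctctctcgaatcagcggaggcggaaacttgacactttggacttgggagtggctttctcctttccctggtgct
S100a4 (chr2:178388409-178388528, plus strand): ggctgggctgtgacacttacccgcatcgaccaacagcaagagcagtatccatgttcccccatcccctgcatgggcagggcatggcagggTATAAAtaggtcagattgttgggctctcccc
S100a6 (chr2:178398417-178398536, plus strand): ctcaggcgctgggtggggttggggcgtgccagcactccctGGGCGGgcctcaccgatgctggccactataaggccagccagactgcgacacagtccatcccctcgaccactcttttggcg
S100a11 (chr2:181875012-181875131, plus strand): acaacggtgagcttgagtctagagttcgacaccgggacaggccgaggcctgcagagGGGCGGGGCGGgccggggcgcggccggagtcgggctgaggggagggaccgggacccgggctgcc
S100b (chr20:12381082-12381201, minus strand): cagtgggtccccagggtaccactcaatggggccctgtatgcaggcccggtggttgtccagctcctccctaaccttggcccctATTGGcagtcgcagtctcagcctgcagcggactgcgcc
Both strands were searched for these 3 motifs. The letters TATAAA began 31 bases before the start of S100a4, and it occurs in the same window of 6.66% of 33469 promoters. GGGCGG was found in S100a13, in S100a6 and, as an overlapping pair, in S100a11, and it occurs in 23.7% of these windows. CCAAT was found in S100b and occurs in 19.9%. No motif was found in all 5 sequences. These are matches of letters and say nothing of binding.

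Of the 7 S100 genes, 6 were more abundant in the atrium and S100a11 did not pass the test (limma, adjusted p under 0.05 after Benjamini-Hochberg adjustment over 31042 probe sets). Over all 14217 genes 22.5% were higher in the atrium by this test and 22.5% were lower. The 7 genes were chosen with earlier results of these data known, so this count is not that of a neutral set. None of the other S100 genes on the array was higher. The median difference was 0.56 on the log2 scale for the 7 genes and -0.04 for all genes. In each of the 6 genes every atrial pool lay above every ventricular pool, with a two-sided exact permutation p of 0.0286, the smallest that 4 pools against 4 allow. Such an ordering was one that 22.2% of all genes showed, and 21.9% showed the opposite one. At a limma adjusted p under 0.0001 and a fold of at least 1.8, set after the study's thresholds, although its test was SAM and not limma, S100a6 alone passed, and 3.37% of all genes were higher. S100b missed the first of these narrowly, with a limma adjusted p of 1.11e-04. This fell to 7.3e-05 without atrial pool 1 and to 2.39e-05 without atrial pool 4. It rose to 6.0e-04 without atrial pool 2 and to 3.8e-04 without atrial pool 3. In tissue RNA, more cells of a type and more transcript per cell cannot be told apart.

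**Figure D1:**
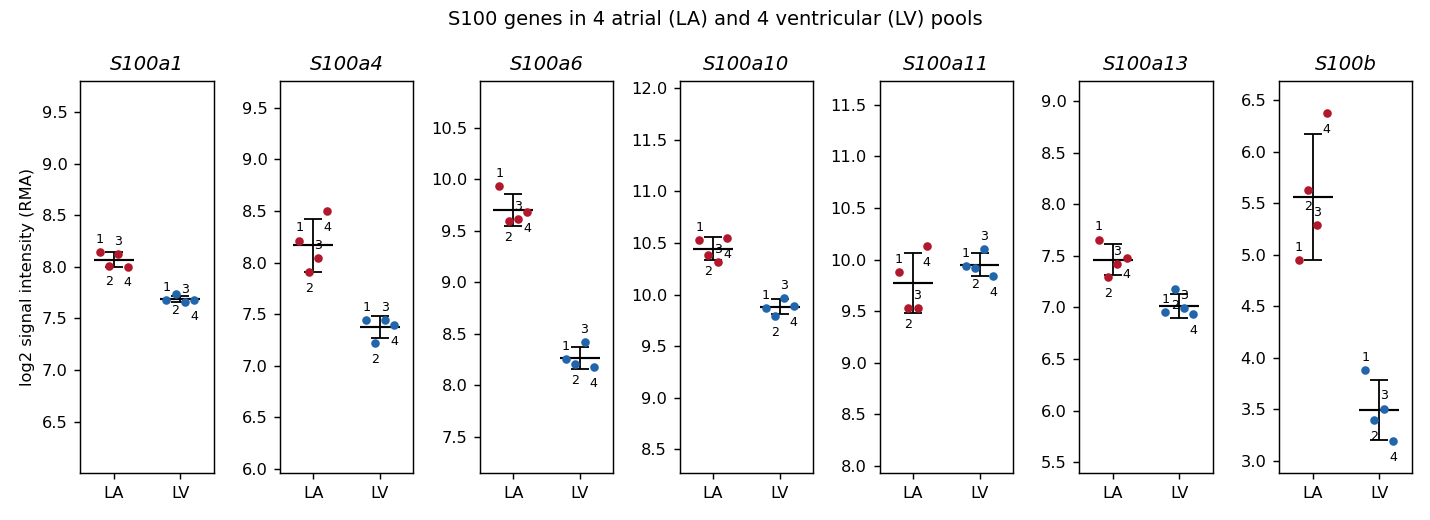
Log2 signal intensity of the 7 S100 genes in the 4 atrial and 4 ventricular pools, 1 panel per gene, each spanning the same range of log2 units. Points are pools with their replicate number, the black line is the mean and the bar the SD between pools. Atrial and ventricular pools do not overlap in any panel except that of S100a11.

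S100a1 is the member known for raising the activity of the cardiac calcium pump and of the ryanodine receptor. Its log2 signal intensity was 8.14, 8.01, 8.13 and 8.0 in the atrial pools and 7.68, 7.73, 7.66 and 7.68 in the ventricular pools. The atrial values lay above all of the ventricular ones, and both tissues had little spread. The means were 8.07 ± 0.07 and 7.69 ± 0.03 (SD, n = 4 each), a difference of 0.38 (SE 0.06, limma adjusted p = 5.29e-04), or 1.3 fold with a 95% interval of 1.19 to 1.43. General cardiomyocyte markers did not move with it as a list, since 2 of 9 were higher, 2 were lower and their median difference was -0.005, with a summed linear signal of 39541 to 43522 in the atrium and 41894 to 43108 in the ventricle.

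S100a1's cardiac partners were each measured. Ryr2, the calcium release channel of the sarcoplasmic reticulum, was higher in the atrium by 0.23 (limma adjusted p = 0.019) in its brightest probe set, but another probe set was lower, at -0.48 (limma adjusted p = 0.0072), so the array gives no single direction for the gene. Pln, the inhibitor of the calcium pump, was lower in the atrium, at -0.52 (limma adjusted p = 3.5e-05). Atp2a2, the pump itself, differed by 0.08 in its brightest probe set (limma adjusted p = 0.29), while of its 4 other probe sets 2 were higher, by 0.24 and 0.55, and 2 did not pass, at 0.11 and 0.02. Ttn, the giant spring protein titin, differed by -0.11 (limma adjusted p = 0.19).

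S100a13 takes part in the release of proteins that lack a signal peptide. Its log2 signal intensity was 7.66, 7.30, 7.42 and 7.48 in the atrial pools and 6.95, 7.18, 6.99 and 6.93 in the ventricular pools. The lowest atrial pool and the highest ventricular pool were close but did not overlap. The means were 7.46 ± 0.15 and 7.01 ± 0.11 (SD, n = 4 each), a difference of 0.45 (SE 0.09, limma adjusted p = 0.0023), or 1.36 fold (95% interval 1.19 to 1.56). Of its release partners, the growth factor Fgf1 was lower in the atrium at -0.38 (limma adjusted p = 0.0020) in its brightest probe set, while its other probe sets, at -0.15 and 0.11, did not pass. Il1a and Syt1 were under a log2 signal of 4 in both tissues.

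S100a4 binds non-muscle myosin and is widely used as a fibroblast marker, although macrophages hold it as well. The atrial pools read 8.21, 7.91, 8.04 and 8.50 and the ventricular pools 7.44, 7.22, 7.44 and 7.40. Atrial pools 1 and 4 were the highest, and the ventricular pools lay together below all atrial ones. The means were 8.17 ± 0.25 and 7.38 ± 0.11 (SD, n = 4 each), a difference of 0.79 (SE 0.12, limma adjusted p = 3.4e-04), or 1.73 fold (95% interval 1.45 to 2.07). The partners of S100a4 moved the other way: Myh9, the heavy chain of non-muscle myosin, fell by 0.51 (limma adjusted p = 4.8e-04) and Ppfibp1, the liprin that S100a4 binds, fell by 0.48 (limma adjusted p = 2.8e-04) in its brightest probe set, with -0.11 in a dim one (limma adjusted p = 0.37).

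S100a6, or calcyclin, is known from growing cells and binds the ubiquitin ligase adaptor Cacybp. The atrial pools read 9.93, 9.60, 9.61 and 9.68 and the ventricular pools 8.25, 8.21, 8.42 and 8.17. The tissues were far apart beside the spread within each. The means were 9.71 ± 0.15 and 8.26 ± 0.11 (SD, n = 4 each), a difference of 1.44 (SE 0.09, limma adjusted p = 5.93e-07), or 2.72 fold (95% interval 2.37 to 3.11). Only 1.58% of all genes had a larger atrial difference. Cacybp was also higher in the atrium, by 0.59 (limma adjusted p = 2.0e-04) in its brightest probe set and 0.88 in the other, while Sugt1, another cochaperone bound by S100a6, differed by 0.06 (limma adjusted p = 0.45).

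S100a10 is the member that does not need calcium. It joins Anxa2 at the plasma membrane and carries channels there. The atrial pools read 10.53, 10.38, 10.32 and 10.55 and the ventricular pools 9.87, 9.79, 9.97 and 9.89. Both tissues had a narrow spread and did not overlap. The means were 10.45 ± 0.11 and 9.88 ± 0.07 (SD, n = 4 each), a difference of 0.56 (SE 0.07, limma adjusted p = 1.3e-04), or 1.48 fold (95% interval 1.32 to 1.65).

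Its partner Anxa2 had atrial values of 10.83, 10.69, 10.73 and 10.99 and ventricular values of 10.42, 10.27, 10.51 and 10.39. These too did not overlap, and the gene was higher in the atrium by 0.42 (SE 0.08, limma adjusted p = 0.0022), though a dimmer probe set differed by -0.13 (limma adjusted p = 0.16). Of the channels that S100a10 carries, Kcnk3 differed by 0.03 in its brightest probe set (limma adjusted p = 0.73) and by 0.82 and -0.09 in the others (limma adjusted p = 1.3e-04 and 0.32), Trpv5 by -0.14 (limma adjusted p = 0.28), and Trpv6 by -0.24 (limma adjusted p = 0.045). The call of Trpv6 was lost under several alternatives, among them cyclic loess scaling, where the difference was -0.16 (limma adjusted p = 0.135).

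S100a11 binds Anxa1 and is a growth regulator of epithelia. It was the exception among the 7 genes. The atrial pools read 9.88, 9.53, 9.53 and 10.13 and the ventricular pools 9.94, 9.92, 10.10 and 9.84. Atrial pools 2 and 3 lay below every ventricular pool, pool 1 lay between the lowest ventricular pools and pool 4 above them all. The difference of the means, 9.77 ± 0.29 and 9.95 ± 0.11 (SD, n = 4 each), was -0.18 with a 95% interval of -0.46 to 0.10 (limma adjusted p = 0.29). Without atrial pools 1 and 4 it was -0.42 (limma adjusted p = 0.0047), without pool 4 alone -0.30 (limma adjusted p = 0.032), and without pools 2 and 3 it was 0.05 (limma adjusted p = 0.75). Its partner Anxa1, an anti-inflammatory annexin, was higher in the atrium by 1.03 (SE 0.06, limma adjusted p = 5.0e-07). Of the 4 annexins in the partner list, Anxa1, Anxa2 and Anxa6 were higher and Anxa11 was lower, with differences of 0.32 for Anxa6 and -0.41 for Anxa11.

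S100b, the Schwann cell and adipocyte member, showed the largest difference of the 7 and the widest spread. The atrial pools read 4.95, 5.62, 5.29 and 6.37 and the ventricular pools 3.88, 3.40, 3.51 and 3.20. Pool 4 was the highest atrial pool, and even the lowest atrial pool was above the ventricular ones. All ventricular values were under a log2 signal of 4, the low end of the scale, where 38.2% of all values lie. The difference was 2.06 (SE 0.26, limma adjusted p = 1.11e-04), or 4.18 fold (95% interval 2.81 to 6.21). A signal this low is background as much as transcript, so the true difference may be larger than this estimate. The means were 5.56 ± 0.61 and 3.5 ± 0.29 (SD, n = 4 each). Its kinase partner Stk38 differed by -0.09 (limma adjusted p = 0.30), and Gfap was under 4 in both tissues.

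**Figure D2:**
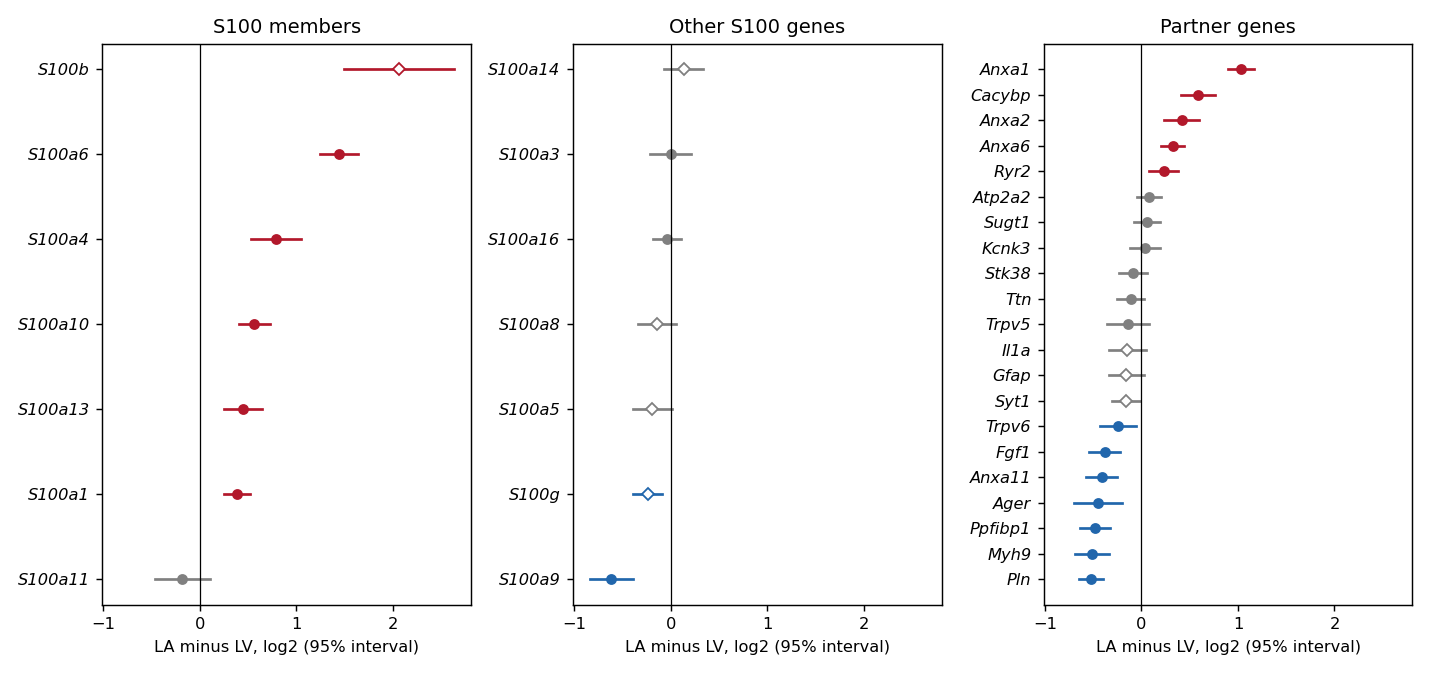
Difference between atrium and ventricle on the log2 scale with its 95% interval, for the 7 S100 genes described here, other S100 genes and the partner genes. Red is higher in the atrium, blue lower and grey not past an adjusted p of 0.05, and a hollow diamond marks a gene with at least 1 tissue mean under a log2 signal of 4. The 7 S100 genes described here run from -0.18 for S100a11 to 2.06 for S100b, and the lowest of the other S100 genes is S100a9 at -0.61.

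In order of the difference the genes stood as S100b, S100a6, S100a4, S100a10, S100a13, S100a1 and S100a11. Neighbours in this order were compared by exact permutation tests over the pools, and none of the 6 pairs passed after Benjamini-Hochberg adjustment. The closest to it were S100a6 over S100a4, by 0.65, and S100a1 over S100a11, by 0.56 (two-sided exact permutation p = 0.0286, adjusted 0.0857 for each). A p of 0.0286 is the smallest that 4 pools against 4 allow, so these pairs could go no lower. The pairs were also formed by sorting on the same differences. These tests therefore cannot show that neighbours in the order are alike. 

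With atrial pools 1 and 4 left out together, the differences were 1.96 for S100b, 1.34 for S100a6, 0.60 for S100a4, 0.47 for S100a10, 0.38 for S100a1 and 0.34 for S100a13. Each of these 6 still passed (limma, largest adjusted p = 0.0153). Of these 6, S100a4 moved most, from 0.79, and the pools left out were its highest.

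Of 21 partner genes measured, 5 were higher in the atrium, 7 were lower and 9 did not pass, and their median difference was -0.14. The receptor Ager was lower, with means of 5.74 in the atrium and 6.19 in the ventricle, a difference of -0.45 (limma adjusted p = 0.0099).

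Among the other S100 genes on the array none was higher in the atrium. Of 7 listed genes measured, 2 were lower and 5 did not pass. S100a9, a calprotectin subunit of neutrophils, was lower, with 4.71 ± 0.17 in the atrium and 5.32 ± 0.15 in the ventricle (SD, n = 4 each), a difference of -0.61 (limma adjusted p = 7.0e-04). S100g passed at -0.24 (limma adjusted p = 0.020), but both means, 2.85 and 3.09, were under 4, so its size is not set. S100a16 differed by -0.04 (limma adjusted p = 0.68). S100a8 and S100a5 were under 4 in both tissues, and S100a3 had a mean of 4.18 in each tissue.

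Along chromosome 2, in the gene order of RefSeq (GRCr8), 71 protein-coding genes lie from S100a1 to S100a10 and 28 of them were measured. The 6 cluster members of the S100 genes described here are among these. Of the 22 others, 0 were higher in the atrium, 4 were lower (S100a9, Loricrin, LOC102549828 and Lce3b) and 14 were under a log2 signal of 4 in both tissues, with a median difference of -0.13. At the S100a1 end, genes that passed the test stood beside genes that did not. S100a4 and S100a6, at 0.79 and 1.44, stand with S100a5 between them, at -0.19, and S100a3 next to S100a4, at 0.00. S100a11 and S100a10, neighbours at the far end, differed by -0.18 and 0.56. The flanking genes were Ilf2 at 0.07 and Snapin at -0.15 on the side of S100a1, and Them4, lower at -0.28 (limma adjusted p = 0.0052), and Them5 at 0.04 on the side of S100a10.

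**Figure D3:**
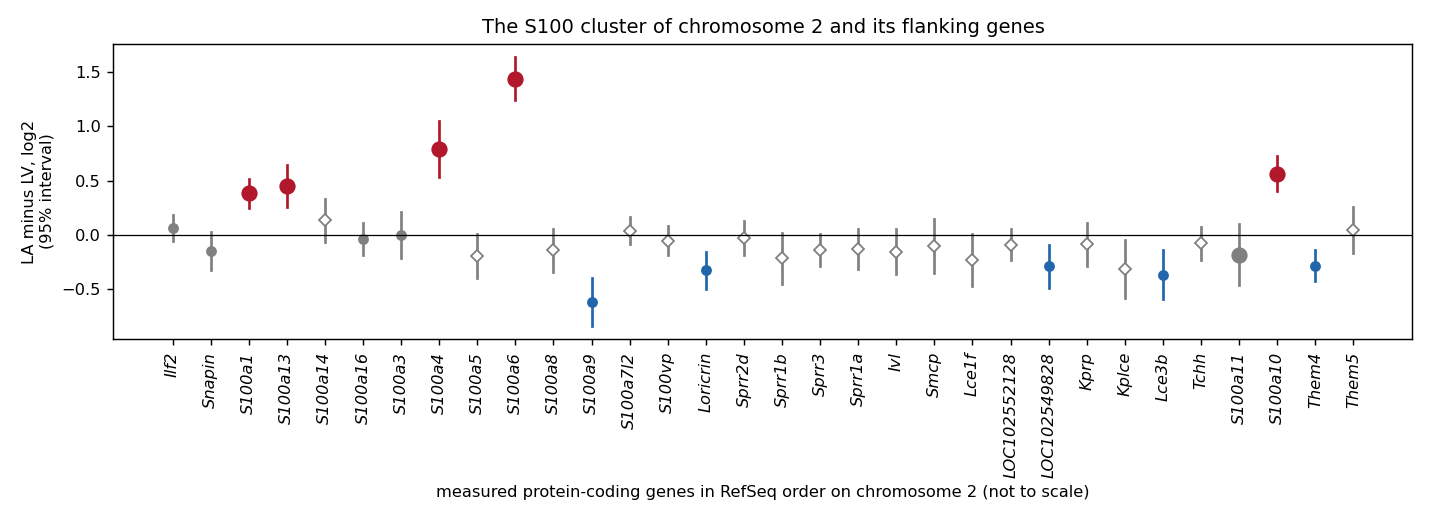
Difference between atrium and ventricle on the log2 scale with its 95% interval for the measured genes of the S100 cluster on chromosome 2, in RefSeq gene order with the flanking genes and not to genomic scale. Red is higher in the atrium, blue lower and grey not past the test, and the higher genes are the 5 S100 genes S100a1, S100a13, S100a4, S100a6 and S100a10.

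Several cell types that hold S100 proteins differed between the tissues, and the part of these in the S100 differences was not tested. Of the lists for cells other than muscle, the mesothelial markers had the largest median difference. Here 7 of 8 measured were higher in the atrium and 1 was lower, with a median of 3.28 and a summed linear signal of 1122 to 2138 in the atrial pools and 192 to 215 in the ventricular pools. Upk1b was higher by 5.04, Msln by 4.40 and Krt19 by 4.36, with the ventricular means of Upk1b and Krt19 under a log2 signal of 4. Fibroblast markers were higher for 9 of 10 (median 0.39), with a sum of 14664 to 17234 against 11435 to 13144, led by Mfap5 at 0.85, Fbln1 at 0.82 and Col1a2 at 0.59. Macrophage markers were higher for 6 of 10 (median 0.30), but their summed signal overlapped, with 1487 to 1963 in the atrium and 1575.5 to 1931 in the ventricle. A summed signal follows the brightest probe sets of a list, here Lyz2, at 9.67 in the atrium and 9.97 in the ventricle. The sums therefore do not measure the amount of a cell type.

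Endothelial markers were lower for 7 of 9 and higher for 1 (median -0.87), with sums of 2847 to 2978 in the atrium and 3944 to 4417 in the ventricle. Smooth muscle markers were lower for 7 of 8 (median -0.41), with 2673 to 2882 against 3732 to 3796. Neuron markers were under a log2 signal of 4 in both tissues for 6 of 8, and 2 were higher (median 0.17), with sums of 109.5 to 136 against 100.1 to 109.

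S100b is held by Schwann cells and adipocytes, so both lists are given. Of 9 Schwann cell and glia markers measured, 2 were higher in the atrium, 3 were lower and 4 were under a log2 signal of 4 in both tissues (Erbb3, Kcna1, Foxd3 and Pmp2). The median difference of the 9 was -0.17, while the summed signal was higher in the atrium, with 808 to 883 against 631 to 682 in the ventricle. Mbp, a myelin protein, was higher by 2.92 and Mal by 1.25. Sox10, the glial transcription factor, was lower at -0.59, as were Gfra3 at -0.40 and Scn7a, the brightest of the list, at -0.22. Of 9 adipocyte markers 4 were higher and 1 was lower (median 0.58), with a summed signal of 2067 to 5304 in the atrium and 3049 to 3186 in the ventricle. The brightest of this list was Fabp4, with means of 10.91 in the atrium and 11.10 in the ventricle. The higher ones were Adipoq, Plin1, Cidec and Cfd, and Plin4 was lower, at -0.81 (limma adjusted p = 4.9e-06). Fabp4, at -0.19, Lipe, at -0.06 in its brightest probe set, and Pparg, at 0.58, did not pass. The other probe set of Lipe was lower, at -0.39 (limma adjusted p = 0.0049). Lep was under 4 in both tissues.

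The atrial pools also differed in adipocyte markers. Adipoq, the adipocyte hormone, was 5.76, 7.04, 6.51 and 8.09 in atrial pools 1 to 4. Plin1, which coats the lipid droplet, was 4.37, 6.75, 5.90 and 9.03 in its brightest probe set. Its other probe set had means under 4 in both tissues and a tissue difference of 0.13 (limma adjusted p = 0.63). In these brightest probe sets both genes were lowest in pool 1 and highest in pool 4, with pools 3 and 2 between, as S100b was. This order of the atrial pools was shown by 8 of 9 adipocyte markers and by 5.71% of all 14217 genes. The median of the 2 neuron markers above the low end had the same order, with deviations of -0.09, 0.06, -0.05 and 0.08 from the atrial mean. Sox10 was 4.87, 4.54, 4.86 and 4.93 in the same pools, and Mbp, at 8.24, 8.01, 7.97 and 7.75, was highest in pool 1. Without atrial pool 4, the difference of S100b was 1.79 (limma adjusted p = 2.39e-05).

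**Figure D4:**
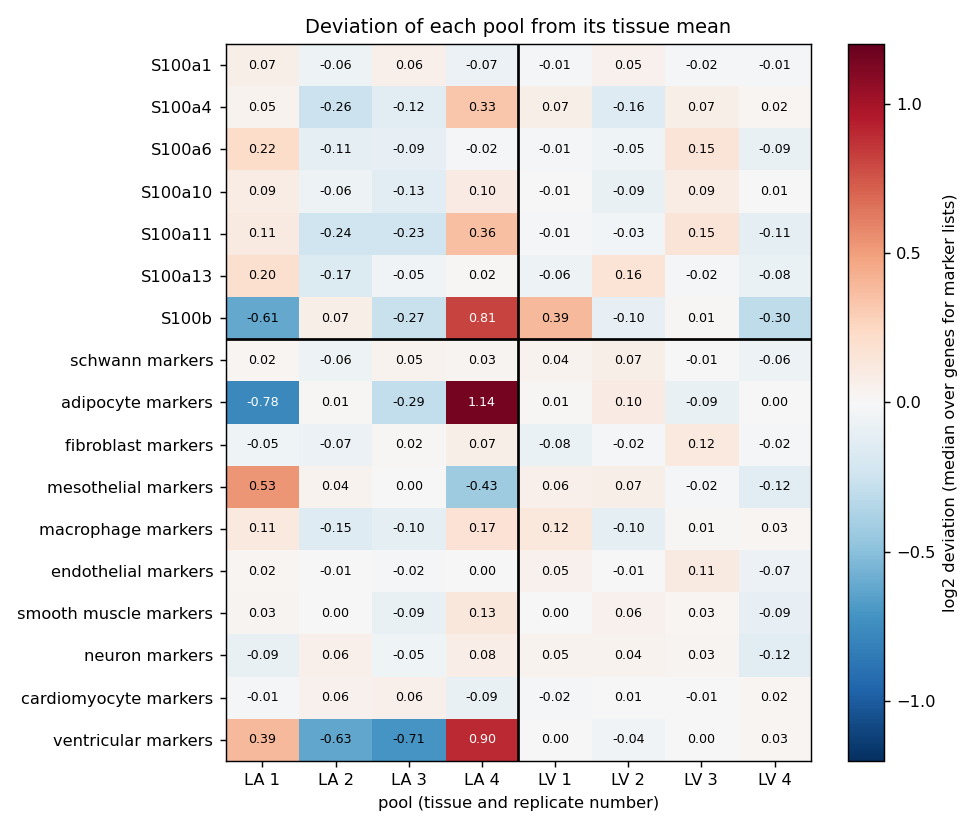
Deviation of each pool from the mean of its tissue on the log2 scale, for the 7 S100 genes and for the median of each marker list. In atrial pools 1 to 4 the adipocyte list deviates by -0.78, 0.01, -0.29 and 1.14 and the ventricular muscle list by 0.39, -0.63, -0.71 and 0.90.

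Within the atrium, S100a4, S100a6, S100a10, S100a11 and S100a13 each had their 2 highest values in pools 1 and 4. How many of all genes share this was not counted. These pools had the higher signals of Myl2 and Myl3 in their brightest probe sets. Their macrophage marker medians lay 0.11 and 0.17 above the atrial mean, and their smooth muscle marker medians 0.03 and 0.13 above it. Cardiomyocyte marker medians were lowest in the same pools, at -0.01 and -0.09, against 0.06 in pools 2 and 3. The part of these in the S100 values was not tested. S100a1 was higher in pools 1 and 3 than in pools 2 and 4.

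The genes most like each member in their deviations from the tissue means, over 8 arrays and among genes with a mean log2 signal of at least 6, were found by Pearson correlation, which is given as a description of these arrays. S100a1 was most like Rbfox2 (0.98), Psmf1 (0.96) and Dop1b (0.96). S100a4 was most like Arpc1b, Fcer1g and Copz1 (0.98 each). For S100a6 these genes were Wipf1 (0.97), Mrgprf (0.96) and Apc (0.96). For S100a10 they were Kcmf1 (0.96), Nop56 (0.95) and Itpr2 (0.95). S100a11 had Cdkn3 (0.98), Tcf19 (0.97) and Actn4 (0.97). S100a13 had Dcakd (0.95), Frat2 (0.92) and Prelid1 (0.92). S100b was most like Coa5 (0.97), G0s2 (0.96) and Nrbp1 (0.96).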

How the data were processed

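Total RNA (10 µg per pool) from 4 atrial and 4 ventricular pools of rat tissue was labelled with biotin and hybridised to Affymetrix rat expression arrays, 1 array per pool. The authors summarised the probe intensities by RMA (version not stated), and deposited them on the log2 scale, as 1 signal intensity for each of 31042 probe sets, with array medians of 4.80 to 4.81. They were used without further scaling. RMA shares its probe model and quantile step over all arrays. Separately, a signal near the low end was taken to be background as much as transcript. A mean under a log2 signal of 4 was treated as the low end.

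Differences are atrial minus ventricular means, tested with limma 3.58.1 in R 4.3.3 without covariates and with Benjamini-Hochberg adjustment. A gene was represented by its probe set of highest mean. Platform annotation gave 20826 probe sets 1 symbol, 436 several and 9780 none, and symbols were updated through RefSeq. Labels give replicate numbers but do not say that they mark shared animals, so the numbers were not taken to pair the pools. Residuals of same-numbered pools correlated at 0.134, 0.155, -0.148 and -0.188. The same-numbered ventricular pool was the closest for atrial pools 1 and 2 but not for 3 and 4, so these values cannot settle whether the pools were paired. The test was checked on simulated data with known answers before use. Of 50 changes at each size, it found 31 at 1.3 fold, 41 at 1.5 fold, 49 at 2 fold and 50 at 4 fold. A small difference that did not pass may therefore have been missed.

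The genes named are the members, most other measured S100 genes, the measured partner genes and some of the marker genes. The 3 genes most like each member and the neighbours of the cluster are named too. Members and lists were chosen with earlier results of these data known. Alternatives were SAM, a trended and robust fit, a replicate block, other scalings, a filter on dim probe sets, the mean of a gene's probe sets and leaving out pools. Plots were made in Python 3.11.15 (matplotlib 3.10.9).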

Additional observations from a re-analysis of the deposited data

How the results depend on the processing

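The 6 S100 genes that were higher in the atrium passed in each of 18 alternative settings, with differences of 1.79 to 2.27 for S100b, 1.34 to 1.54 for S100a6, 0.60 to 0.98 for S100a4, 0.47 to 0.66 for S100a10, 0.34 to 0.55 for S100a13 and 0.31 to 0.41 for S100a1. At the stricter limma limits, which do not return the study's SAM list, the count of 6 became 1. The count of S100 genes lower in the atrium, 0, ranged from 0 to 1 with 1 pool left out (S100a11 without atrial pool 4) and was 1 with atrial pools 1 and 4 left out. S100a11 turned to 0.054 with atrial pools 2 and 3 left out. With replicate number as a block, no call of the 7 genes changed, and the count of other S100 genes that were lower went from 2 to 1, as it did under quantile and cyclic loess scaling and after a filter on the dimmest 40% of probe sets, and it ranged from 1 to 2 with 1 pool left out. The calls lost under the block among the S100 and partner genes were those of S100g (limma adjusted p = 0.055) and Trpv6 (0.056). Kcnk3 turned to -0.039 under quantile and -0.026 under cyclic loess scaling, Sugt1 to -0.011 under quantile scaling and Ryr2 to -0.12 as the mean of its probe sets. The causes were not tested. Each of the 7 S100 genes had 1 probe set, so the mean of a gene's probe sets, among the 18 settings, left their differences unchanged and was void as a check of them. With 4 arrays per tissue the precision is limited by their number, and signals under a log2 of 4 do not set the size of a difference.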
